A study of Homo sapiens with 6 samples.

Results

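IL32, the gene of the cytokine interleukin 32, was examined in parental PC9 cells and in PSPC9 cells, together with every transcript that the annotation assigns to it. PC9 is a cell line from a human lung carcinoma of the non-small cell type, and PSPC9 are the persister cells of the same line left after 6 days in erlotinib, which inhibits the kinase EGFR. Each condition had 3 libraries, 6 in all, and the PC9 libraries carried no drug treatment in their labels. The PC9 libraries came from independent cultures, whereas several separately grown erlotinib cultures were combined for the PSPC9 libraries, so the spread among the latter is that of pools. IL32 is 1 of 36459 genes in the gene table, and its 35 transcripts are among 188753 in the transcript table. It was selected on its own difference between PSPC9 and PC9 in these libraries, so its level, its fold change, its transcripts and their shares are described here with no test.

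Interleukin 32 is a cytokine without close relatives in other interleukin families, best known from activated T and natural killer cells, monocytes, endothelium and inflamed epithelium. Its transcription is induced by tumor necrosis factor, interleukin 1 beta and interferon gamma, with NF-kappa B as a main activator, and the protein is reported to induce inflammatory cytokines in turn. Alternative splicing yields several coding forms, named with Greek letters, which differ in which internal stretches of the coding sequence they keep and which share an integrin-binding RGD motif near their end.

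The gene (ENSG00000008517) lies on the plus strand of GRCh38 chr16:3065297-3082192. Of its 35 transcripts 30 are annotated as protein-coding and 5 as transcripts with a retained intron. They fall into groups by where they start. An upstream group of 13 starts between 3065297 and 3065404, a downstream group of 18 between 3065610 and 3065712, and 4 begin further inside the gene. The coding forms were called here by identity of the annotated coding exons. The beta form, with 564 coding nucleotides without the stop codon, is shared by 10 transcripts, among them the MANE Select model IL32-211. The gamma form (702 nucleotides, 3 transcripts) keeps a segment that beta removes. The alpha form (393 nucleotides, 3 transcripts) lacks a segment of the last coding exon, and the delta form (534 nucleotides) has 1 transcript. A further 3 transcripts skip the 60-nucleotide exon that follows the gamma segment and have 504 coding nucleotides, and they are called the exon-skipped form below. Another 10 coding transcripts carry other structures, among them IL32-216 and IL32-235, which have the same coding length but skip a later exon of the same size.

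The segments by which these forms differ are shown because they are what separates the forms. Each has a length that is a multiple of 3. They were read from the GENCODE 44 transcripts on GRCh38, plus strand. Capitals mark the GT at the start and the AG at the end of the 2 segments that can be removed as introns, and the exon is in lower case throughout. The gamma segment is at chr16:3067416-3067553, the skipped exon follows it directly at chr16:3067554-3067613, and the alpha segment is at chr16:3069110-3069280.
gamma segment: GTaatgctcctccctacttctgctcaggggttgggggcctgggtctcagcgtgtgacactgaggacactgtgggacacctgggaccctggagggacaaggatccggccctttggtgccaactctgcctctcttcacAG
skipped exon: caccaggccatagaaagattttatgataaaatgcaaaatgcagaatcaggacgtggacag
alpha segment: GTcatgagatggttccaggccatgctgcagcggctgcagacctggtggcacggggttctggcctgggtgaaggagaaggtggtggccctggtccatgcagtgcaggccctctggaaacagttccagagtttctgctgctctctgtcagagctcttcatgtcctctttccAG

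The codons of the RGD motif lie beyond all of these segments, at chr16:3069296-3069304, and are given in capitals within the surrounding coding sequence.
RGD codons: ggagccccaCGGGGGGACaaggaggag
They were found in 28 of the 30 coding transcripts. The motif began at codon 170 of beta, 216 of gamma, 113 of alpha, 160 of delta and 150 of the exon-skipped form, so the forms that carried nearly all IL32 counts below had it in common.

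Upstream of the first start, a stretch of the RefSeq promoter window (GRCh38.p14, chr16:3065153-3065326, plus strand) is shown because the upstream transcripts carried most IL32 counts in PSPC9. Capitals mark the matches of the cyclic AMP response element TGACGTCA and of the kappa B consensus.
upstream promoter: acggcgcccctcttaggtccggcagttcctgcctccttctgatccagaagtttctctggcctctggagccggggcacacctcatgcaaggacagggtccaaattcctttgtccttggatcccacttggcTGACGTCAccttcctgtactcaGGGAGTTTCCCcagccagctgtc
The response element was at 3065282-3065289, and 1.85% of 35116 RefSeq promoter windows of 300 bases held it. Kappa B matches on the plus and the minus strand overlapped each other at 3065304-3065314, just past the first annotated start, and 5.91% of the windows held at least 1. On both strands, no match of AP-1 (TGANTCA), GAS (TTCNNNGAA), the interferon-stimulated response element (ISRE), C/EBP (TTGCNNAA) or C/EBP-ATF (TGATGCAA) was in this window, and none of the 7 motifs was in the window of the downstream starts, chr16:3065534-3065833. A match describes these letters only.

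IL32 was low in every PC9 library and well expressed in every PSPC9 library. The 3 PC9 libraries held 71, 68 and 56 IL32 counts and the 3 PSPC9 libraries held 1670, 1934 and 2151. The lowest PSPC9 library was thus far above the highest PC9 library. On the counts-per-million scale (CPM), with library totals scaled by the trimmed mean of M values (TMM), IL32 was at 1.91 ± 0.214 (SD, n = 3) in PC9 and 60.5 ± 2.98 (SD, n = 3) in PSPC9, a ratio of 31.7. The lowest PSPC9 value was 27.7 times the highest PC9 value. The fitted log2 fold change was 4.98 (SE 0.081), and only 13 of the 14626 genes that passed the filter on low counts had a larger positive fold change. In bulk libraries, more cells with IL32 and more IL32 RNA per cell cannot be told apart. In mean CPM, 84.5% of these genes were above IL32 in PC9 and 27.1% in PSPC9.

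**Figure D1:**
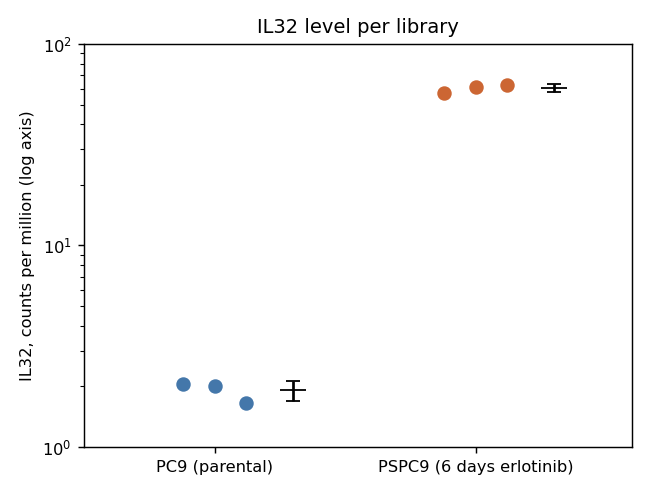
IL32 level in CPM on a log axis for the 3 PC9 and the 3 PSPC9 libraries, with each point a library and the bar beside it the mean and SD. PC9 libraries sit between 1.66 and 2.06, and PSPC9 libraries between 57.2 and 62.9.

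The libraries held between 29476725 and 34893782 gene counts in all, so depth differed far less than IL32 did. Of 14626 genes tested with edgeR's quasi-likelihood test, 56.8% passed a Benjamini-Hochberg adjusted p under 0.01, 28.7% as higher and 28.1% as lower in PSPC9. Counts of changed genes in the lists below are to be read against these shares. Of 12 genes known to follow ERK signaling downstream of EGFR, 10 were lower in PSPC9, DUSP6 among them at 19.1, 20.9 and 20.0 CPM in PC9 and 1.58, 1.37 and 1.73 CPM in PSPC9. FOSL1 was higher (log2 fold change 0.27, adjusted p = 0.000705), and 1 gene did not pass the limit.

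The 35 transcripts shared out these counts unevenly. In PSPC9, 12 were above 0 in all 3 libraries and 15 in some of them, and 8 were at 0 in all 6 libraries. Only IL32-202 was above 0 in every PC9 library. Kallisto divides reads that match several transcripts among them by estimation, and these transcripts share most of their exons, so each transcript count below is an estimate whose assignment error was not analysed here. With 56 to 70 IL32 transcript counts per PC9 library, a transcript listed at 0 there may still hold a share of up to 4.29% to 5.36%, the share of 3 counts. In PSPC9, with 1671 to 2150 counts, that limit was 0.14% to 0.18%. These limits cover counting error only.

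Upstream-start beta transcripts led in PSPC9. IL32-202, the transcript with the highest mean count over the 6 libraries, held 18, 5 and 6 counts in PC9 and 341, 392 and 418 in PSPC9. Its share of IL32 counts was 14.6% ± 9.78 (SD, n = 3) in PC9 and 20.0% ± 0.522 (SD, n = 3) in PSPC9. IL32-206, which differs from it in its ends and by 3 bases at the start of exon 2, held 13, 12 and 0 counts in PC9 and 280, 330 and 408 in PSPC9. IL32-213, with an additional noncoding exon, held 9, 7 and 0 counts in PC9 and 263, 333 and 361 in PSPC9. Together these transcripts held 54.2% ± 1.19 (SD, n = 3) of the IL32 counts in PSPC9. Each was higher in CPM in every PSPC9 library than in any PC9 library, a pattern shown by 20.1% of the 54499 transcripts that passed the filter on low counts, and nothing is read from it here because IL32 was selected on the same contrast. In share of IL32 counts, IL32-202 and IL32-206 overlapped between conditions. The fitted log2 fold changes were 5.38 (SE 0.48) for IL32-202, 5.41 (SE 0.85) for IL32-206 and 5.95 (SE 0.78) for IL32-213.

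Below them in PSPC9 came transcripts of the downstream start. IL32-222, another beta transcript, held 0, 0 and 41 counts in PC9 and 133, 98 and 282 in PSPC9. It thus took 73.2% of the IL32 counts of PC9 replicate 3 and none of those in the other PC9 libraries. Through that library alone, its mean share in PC9 (24.4%) was above that of IL32-202 (14.6%). IL32-218, of the exon-skipped form, held 0, 10 and 0 counts in PC9 and 127, 126 and 119 in PSPC9. IL32-233 (beta) held 21, 9 and 0 counts in PC9 and 71, 142 and 110 in PSPC9. IL32-205 (gamma) held 0, 5 and 9 counts in PC9 and 148, 56 and 63 in PSPC9. Each of these was higher in all PSPC9 libraries than in any PC9 library, and their shares of IL32 counts varied more among the PSPC9 libraries (SD of 1.03 to 4.08 percentage points) than that of IL32-202 (0.522). IL32-212, an upstream beta transcript that reads through from its first exon into exon 2, held 6, 0 and 0 counts in PC9 and 65, 75 and 71 in PSPC9.

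Some transcripts were at 0 in all PC9 libraries. IL32-207 (downstream, beta) was at 93, 73 and 43 counts in PSPC9, 75 times the level that 3 counts over the PC9 group would give. By the same measure IL32-223 (upstream, gamma, with 60, 83 and 44 counts in PSPC9) was at 67.1 times that level. IL32-201 (downstream, exon-skipped, with 40, 42 and 64 counts) was at 52.4 times. These ratios allow for counting error only and not for the assignment of reads among transcripts, so they are no firm lower bounds. IL32-226 (downstream, gamma) was at 0, 71 and 60 counts in PSPC9 and IL32-217 (downstream, beta) at 37, 6 and 7. Summed over the downstream gamma transcripts, IL32-226 among them, the PSPC9 libraries held 148, 127 and 123 counts, which varied less. Reads shared by these transcripts are divided by estimation, so the 0 of IL32-226 in 1 PSPC9 library does not show that it was absent there. Its presence was not tested. IL32-232 (exon-skipped) held 0, 5 and 0 counts in PC9 and 0, 53 and 34 in PSPC9. The MANE Select transcript IL32-211 held 0, 7 and 0 counts in PC9 and 9, 13 and 0 in PSPC9, at most 0.672% of IL32 counts in a PSPC9 library and 10.3% in PC9 replicate 2. The table holds an earlier version of this model than the annotation used here, so its structure may differ from the one counted. The remaining 20 transcripts were below a mean count of 10, IL32-204 being the highest of them at 0, 8 and 0 counts in PC9 and 0, 18 and 31 in PSPC9.

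**Figure D2:**
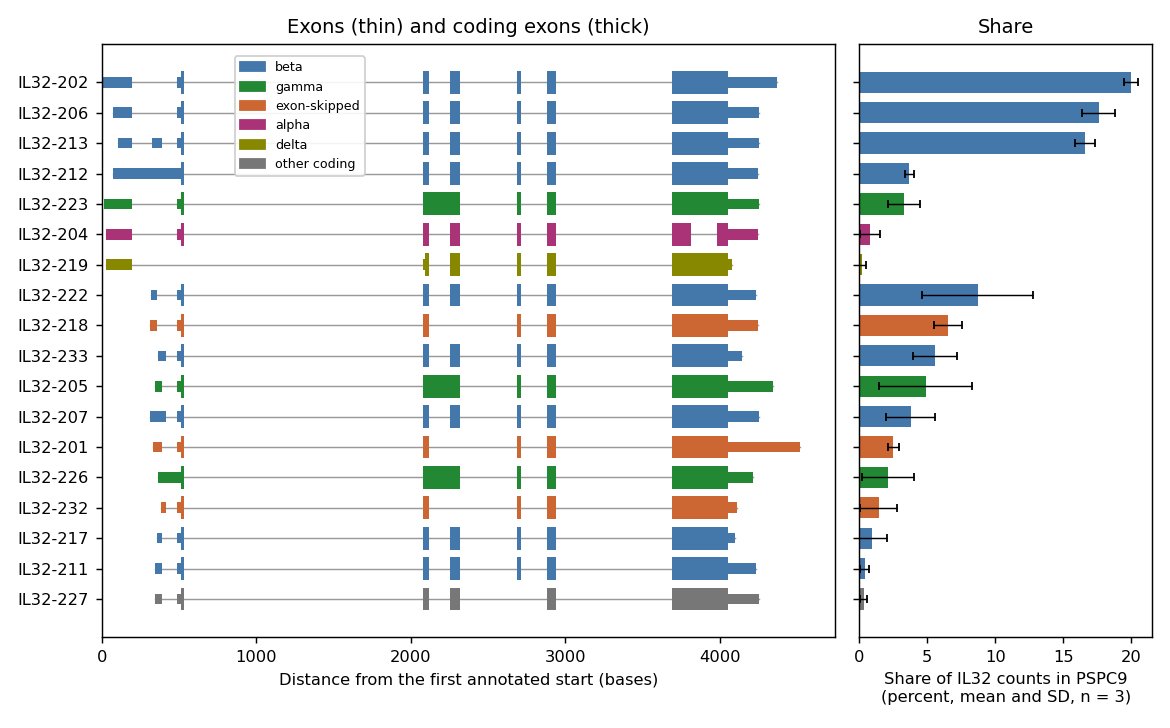
Exon structure of IL32 transcripts with a mean count of at least 2, by distance in bases from the first annotated start, with coding exons drawn thick, and beside it each transcript's share of IL32 counts in PSPC9 (bars, mean; lines, SD over 3 libraries). IL32-202, IL32-206 and IL32-213, all with the upstream start and the beta coding exons, hold the largest shares.

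Summed by coding form, most IL32 counts were beta in both conditions. Beta transcripts made up 77.3%, 75.6% and 79.1% of IL32 counts in the PSPC9 libraries, and 95.7%, 58.8% and 83.9% in the PC9 libraries. The mean was 77.3% ± 1.74 (SD, n = 3) in PSPC9 and 79.5% ± 18.8 (SD, n = 3) in PC9, so the difference was far smaller than the spread between the PC9 libraries. With 70, 68 and 56 counts, the 95% Wilson intervals of the PC9 shares ran from 88.1% to 98.5%, from 47.0% to 69.7% and from 72.2% to 91.3%. They cover counting error only and treat the estimated counts as whole reads. Over genes with at least 10 counts in a pair, PC9 libraries differed by a chi-square of 5.22 to 20.0 per degree of freedom. PSPC9 libraries differed by 3.41 to 5.15, where counting error alone gives about 1. These values are of gene counts and not of IL32 transcript shares.

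The exon-skipped and the gamma form followed in PSPC9 at similar levels. The exon-skipped form made up 9.99%, 11.4% and 10.1% of IL32 counts in PSPC9, and gamma 12.4%, 10.9% and 7.77%. In PC9 the exon-skipped form was seen in replicate 2 alone, with 15 counts, and gamma in replicates 2 and 3, with 5 and 9 counts. Both forms overlapped between conditions in share. The alpha form held 0, 18 and 31 counts in PSPC9 and the delta form 0, 3 and 11, so each was under 1.5% of IL32 counts in any PSPC9 library. Retained-intron transcripts held 2, 1 and 4 counts in PSPC9 and 3, 0 and 0 in PC9.

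By start, the upstream group held 60.5%, 64.2% and 62.8% of IL32 counts in PSPC9. In PC9 it held 70.0%, 47.1% and 10.7%. The PSPC9 mean of 62.5% ± 1.87 (SD, n = 3) lay within the range of the PC9 libraries, whose mean was 42.6% ± 29.9 (SD, n = 3), and 58.5% without replicate 3, which held 41 of its 56 counts on IL32-222. In CPM, the upstream group was at 0.847 ± 0.628 (SD, n = 3) in PC9 and 37.9 ± 2.80 (SD, n = 3) in PSPC9, and the downstream group at 1.05 ± 0.437 and 22.7 ± 0.700. Both starts were therefore higher in PSPC9.

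As estimated over the annotated models, the forms were not spread alike over the starts in PSPC9. Of the upstream counts, 93.9%, 91.0% and 93.2% were beta. Of the downstream counts, 52.0%, 48.0% and 55.3% were beta, 25.3%, 31.9% and 27.2% were exon-skipped and 22.4%, 18.4% and 15.4% were gamma. All 3 exon-skipped models in the annotation have the downstream start, so that form could be counted there alone. Gamma has 1 upstream and 2 downstream models, so the contrast depends in part on which models are annotated.

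**Figure D3:**
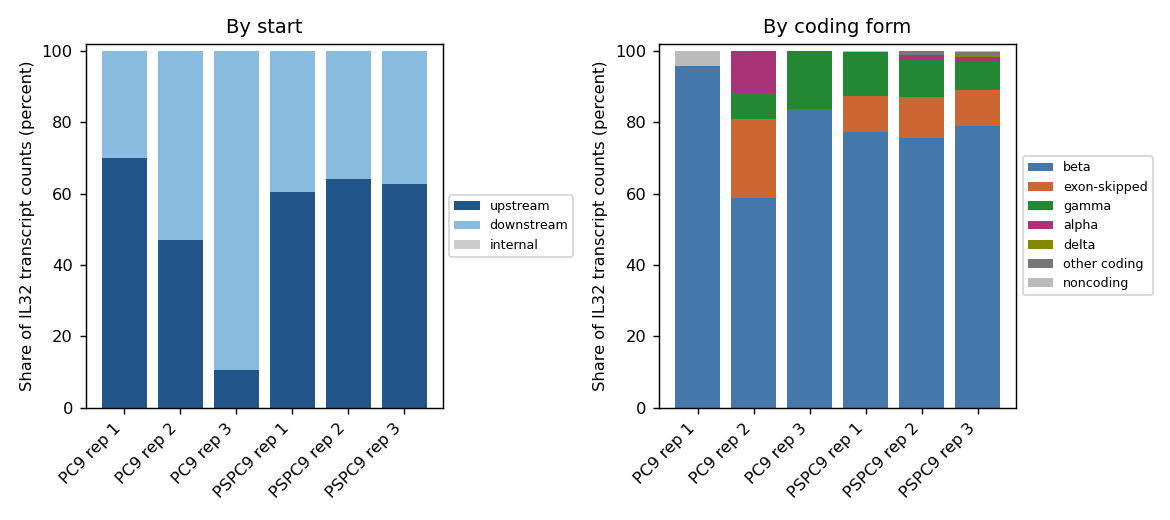
Share of IL32 transcript counts per library in percent, stacked by start (left) and by coding form (right). The PSPC9 bars resemble each other, with 60.5% to 64.2% upstream and 75.6% to 79.1% beta, and the PC9 bars, each built on 56 to 70 counts, differ widely.

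Single transcripts mostly varied more among the PSPC9 libraries than the gene did. The coefficient of variation of CPM was 4.92% for the gene, 7.39% for the upstream and 3.09% for the downstream group, and 5.90% for the beta, 10.2% for the exon-skipped and 19.0% for the gamma form. Over the 15 transcripts with a mean PSPC9 count of 10 or more, it had a median of 34.0% and ran from 3.28% to 111%. In PC9 that of the gene was 11.2%.

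In a chosen list of 23 genes of interleukins and related cytokines, LIF among them, IL32 ranked 4 in PC9, at a low level. It had the highest level of the list in PSPC9. Levels of different genes were compared as CPM per kilobase of transcript. In PC9, IL32 was at 2.18 ± 0.249 (SD, n = 3) and ranked 4 of 23, under IL18, LIF and IL23A and close to IL36RN, whose range lay within that of IL32. In PSPC9, IL32 was at 65.1 ± 3.84 (SD, n = 3) and ranked 1, above IL18 at 40.3 ± 0.373 (SD, n = 3), and the libraries of the pair did not overlap. IL18, which encodes an inducer of interferon gamma, showed CPM of 43.9, 41.0 and 44.2 in PC9 and 42.1, 42.0 and 42.6 in PSPC9. Of 12 other genes of this list that could be tested, 3 were higher (IL6, IL11 and IL34) and 2 lower (IL1B and IL36RN), a share of 41.7%. IL36RN lost its call in 4 of 13 alternative settings (adjusted p of 0.0178 to 0.0381). IL34, a ligand of the CSF1 receptor, was at 1, 2 and 0 counts in PC9 and 28, 27 and 36 in PSPC9 (edgeR, Benjamini-Hochberg adjusted p = 5.83e-06).

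**Figure D4:**
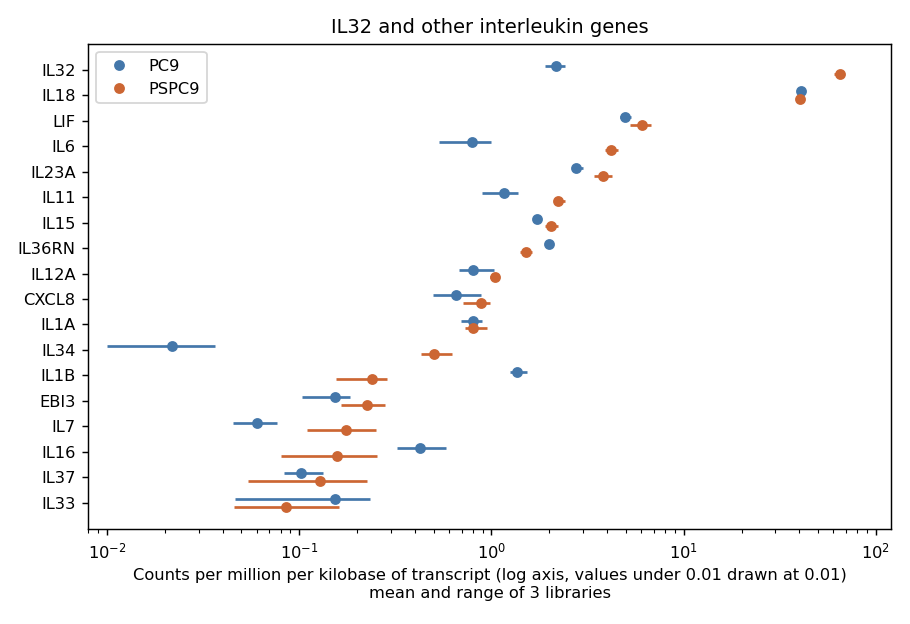
Level of IL32 and other genes of the chosen interleukin list in CPM per kilobase on a log axis, as the mean (point) and range (line) of 3 libraries per condition, for genes with a mean of at least 0.1 in either condition. IL32 is at 2.18 in PC9 and, at 65.1, above every other gene of the list in PSPC9.

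The known inducers of IL32 did not move one way. TNF, the gene of tumor necrosis factor, was at 0.232, 0.470 and 0.238 CPM in PC9 and 0.822, 1.02 and 1.05 CPM in PSPC9, a rise of 3.08-fold at a low level (adjusted p = 0.00083). IL1B was at 2.32, 1.88 and 1.93 CPM in PC9 and 0.411, 0.381 and 0.234 CPM in PSPC9, and fell by 2.58 on the log2 scale (SE 0.25, adjusted p = 3.93e-06). IFNG was at 0 in all 6 libraries. Of 18 tested inducers and receptors 4 were higher and 7 lower, with a median log2 fold change of -0.20, beside -0.00613 over all tested genes. TLR2, a sensor of bacterial lipoproteins, showed the largest rise, from 1.37, 1.15 and 1.07 CPM in PC9 to 6.75, 7.75 and 6.47 CPM in PSPC9 (log2 fold change 2.54, SE 0.14, adjusted p = 4.80e-08). IFNGR1 and MYD88, a receptor chain for interferon gamma and the adaptor of Toll-like and interleukin 1 receptors, rose 1.5-fold and 1.29-fold. TNFRSF1A, the main receptor of tumor necrosis factor, was 0.623 times its PC9 level, and TLR4 0.210 times. IFNGR2 also fell in the gene table (log2 fold change -0.41, adjusted p = 0.000123), but not in counts summed from transcripts (-0.08, adjusted p = 0.529), and TLR3 fell by 0.36 on the log2 scale.

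Genes of the NF-kappa B pathway were mostly higher. Of 19 tested genes 15 were higher and 3 lower in PSPC9, 11 and 2 of them in every one of 13 alternative settings, so 94.7% passed the limit beside 56.8% of all tested genes, with a median log2 fold change of 0.56. The list was not tested as a set. TRAF1, an adaptor of tumor necrosis factor receptors and a classical NF-kappa B target, was at 2.53, 3.08 and 2.79 CPM in PC9 and 17.5, 18.8 and 18.8 CPM in PSPC9 (log2 fold change 2.71, SE 0.088, adjusted p = 9.55e-10). RELB, the subunit of the noncanonical pathway, rose 3.04-fold from 11.8, 13.9 and 11.9 CPM to 38.4, 37.1 and 38.8 CPM (adjusted p = 5.67e-09). Summed from the transcript table, RELB had a log2 fold change of 0.71 with adjusted p = 0.108, so its call rests on the gene table. CYLD, BIRC3 and NFKB2, a deubiquitinase, an inhibitor of apoptosis and the partner of RELB, rose 2.29-fold, 2.20-fold and 1.74-fold. Of the canonical subunits, NFKB1 rose 1.65-fold (adjusted p = 6.51e-07) and RELA 1.16-fold (adjusted p = 0.000924). NFKBIZ and BCL3, nuclear proteins related to the inhibitors of NF-kappa B, and the kinase IKBKB were lower, at 0.644, 0.653 and 0.842 times their PC9 levels. Calls were lost in 8 of the 13 alternative settings for REL (higher, log2 fold change 0.29), in 5 for NFKBIA (higher, 0.22), in 4 for TNIP1 (higher, 0.19) and in 4 for IKBKB, and these genes were named for that reason after their values were seen.

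Regulators of the interferon response were divided. Of 9 tested genes 3 were higher and 4 lower. SOCS3, an inhibitor of cytokine signaling, fell from 32.1, 39.7 and 36.7 CPM in PC9 to 9.28, 8.90 and 8.52 CPM in PSPC9 (log2 fold change -2.02, SE 0.084, adjusted p = 6.06e-09). STAT2, IRF9 and IRF1, transcription factors of the response, were at 0.536, 0.431 and 0.754 times their PC9 levels. JAK1, a cytoplasmic kinase bound to cytokine receptors, rose 1.70-fold and its relative JAK2 1.31-fold (adjusted p = 0.00264, lost under DESeq2 and without PSPC9 replicate 1).

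Of the proteins reported to bind or relay IL32, 10 genes could be tested, and 3 were higher and 4 lower. ITGAV, the integrin chain that recognizes RGD motifs, was at 85.1, 74.7 and 77.3 CPM in PC9 and 198, 192 and 184 CPM in PSPC9 (log2 fold change 1.27, SE 0.052, adjusted p = 5.54e-09). Its partner chain ITGB3 was at 1.54, 1.06 and 1.54 CPM in PC9 and 1.82, 2.26 and 1.70 CPM in PSPC9 and did not pass the limit (adjusted p = 0.057), while the alternative partner ITGB6 fell by 0.39 on the log2 scale. STAT3 and PXN, a transcription factor and a focal adhesion adaptor, rose 1.33-fold and 1.15-fold. F2RL1, a protease-activated receptor, was 0.406 times its PC9 level, and the kinases PRKCD and PTK2 0.738 and 0.828 times. PRTN3, the gene of proteinase 3, held at most 3 counts in any library.

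Reported targets of IL32 likewise gave a mixed picture. Of 14 genes 8 could be tested, and 4 were higher and 1 lower, a share of 62.5% beside 56.8% of all tested genes. CCL2, CCL20, IL10, VCAM1, TSLP and MMP9 were too low to test, with VCAM1 and TSLP at 0 in all libraries. TNF and IL1B, described above, are also members of the inducer list. IL6 was at 0.843, 0.735 and 0.446 CPM in PC9 and 3.73, 4.13 and 4.18 CPM in PSPC9 (log2 fold change 2.57, SE 0.19, adjusted p = 6.63e-07). PTGS2, which encodes the inducible cyclooxygenase, was at 3.60, 2.73 and 3.33 CPM in PC9 and 12.3, 11.4 and 11.5 CPM in PSPC9 (log2 fold change 1.86, SE 0.10, adjusted p = 6.27e-08). ICAM1, an adhesion molecule, rose 1.38-fold. The chemokine genes CXCL8, CXCL1 and CXCL2 had log2 fold changes of 0.30, 0.16 and 0.42 and did not pass the limit (adjusted p from 0.153 to 0.731). Over the union of these lists, 46 of 62 tested genes passed the limit (74.2%, beside 56.8% of all tested genes), 28 as higher and 18 as lower. The share was 94.7% in the NF-kappa B list. It was 61.1% for inducers and receptors, 77.8% for interferon regulators, 70% for partners and 62.5% for targets.

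**Figure D5:**
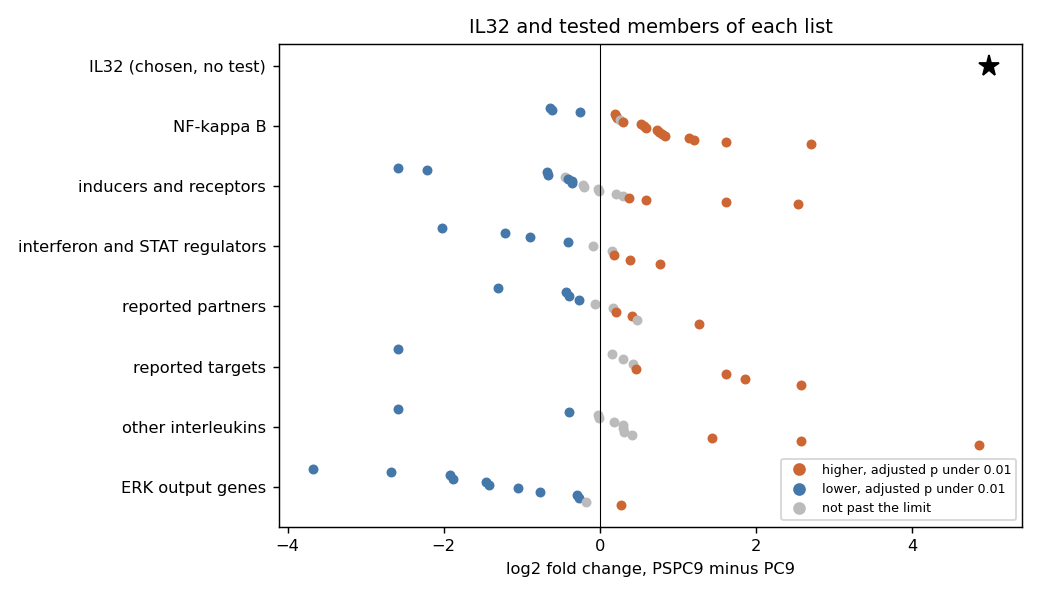
log2 fold change from PC9 to PSPC9 of IL32 (star) and of the tested members of each list (points), colored by whether they passed an adjusted p under 0.01. Members of the NF-kappa B list lie mostly above 0 (15 of 19 called higher), those of the ERK output list mostly below 0 (10 of 12 called lower), and the others on both sides.

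Markers of cell types known for IL32 were read beside it, and their part in the IL32 difference was not tested. Of 8 T and natural killer cell markers, CD2, CD3E, NKG7 and PRF1 were at 0 in all libraries, and the summed level of the list was 0.47 to 0.624 CPM in PC9 and 0.159 to 0.38 CPM in PSPC9. Of 5 monocyte markers 2 were higher in PSPC9, ITGAM at 0.930, 1.2 and 1.46 CPM in PC9 and 11.0, 11.2 and 9.80 CPM in PSPC9 and CSF1R at 0.465, 0.411 and 0.505 CPM and 4.14, 4.57 and 5.03 CPM. The summed level of that list was 2.21 to 2.70 CPM in PC9 and 15.1 to 16.1 CPM in PSPC9, while CD14 was at 18, 21 and 16 counts and 4, 10 and 9 counts, LYZ at 8, 4 and 9 and then 0, 0 and 1, and FCGR3A at 2, 2 and 0 and then 0. Of 5 endothelial markers PECAM1 fell by 4.35 on the log2 scale, from a mean of 4.37 CPM in PC9 to 0.214 CPM in PSPC9. CDH5 did not pass the limit (log2 fold change -0.35, edgeR adjusted p = 0.021). VWF, TEK and KDR were too low to test. Their mean CPM went from 0.254, 0.0785 and 0.147 in PC9 to 0.352, 0.176 and 0.331 in PSPC9. The summed level of this list was 8.28 to 9 CPM in PC9 and 3.73 to 4.27 CPM in PSPC9. That fall lay mainly in PECAM1. All 6 epithelial markers were expressed in all libraries, and all passed the limit. CDH1 and KRT7 rose 1.52-fold and 1.37-fold, KRT18, KRT19 and KRT8 were at 0.527, 0.490 and 0.576 times their PC9 levels and EPCAM at 0.880 times, and the summed levels were 7519 to 8051 CPM in PC9 and 5936 to 6298 CPM in PSPC9.

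Genes around IL32 changed in both directions. Of 41 annotated genes within 200 kb, 15 could be matched by name and tested. Of these, 8 passed the limit (53.3%, beside 56.8% of all tested genes), 3 as higher and 5 as lower. MMP25, the nearest tested gene at 4.57 kb, was at 0.668, 0.646 and 0.772 CPM in PC9 and 0.685, 1.08 and 1.17 CPM in PSPC9 and did not pass (adjusted p = 0.106). The genes with the smallest p-values were HCFC1R1, THOC6, BICDL2, TNFRSF12A and CLDN9. HCFC1R1 fell by 1.58 and THOC6 by 0.69 on the log2 scale, BICDL2 fell by 0.37, and TNFRSF12A and CLDN9 rose by 0.54 and 0.39. Inside the gene, the small nuclear RNA gene RNU1-125P overlaps the 3′ ends of some IL32 transcripts on the same strand at chr16:3069523-3069651, and a lncRNA on the minus strand overlaps the last exon of IL32-210 alone. Neither could be matched by name to a row of the gene table.

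The genes most like IL32 over the 6 libraries were NPPB, IGFN1, KIF1A, VTN and MMP24, by the root mean square difference of log2 CPM after each gene was centered on its mean. The differences were 0.22, 0.221, 0.273, 0.292 and 0.314. This measure is set mainly by the difference between the conditions. The fitted log2 fold changes were 5.76, 5.23, 6.56, 7.08 and 4.44 in the same order, beside 4.98 for IL32. At the few PC9 counts of NPPB, KIF1A and VTN, the prior count of 2 narrows such differences, so likeness here does not mean an equal fold change. NPPB, a natriuretic peptide gene, held 2, 1 and 1 counts in PC9 and 61, 71 and 90 in PSPC9, and VTN, the vitronectin gene, 0, 1 and 0 counts and 64, 60 and 49. KIF1A, a kinesin gene, held 1, 0 and 1 counts and 52, 79 and 78. IGFN1 and MMP24, the latter a membrane metalloproteinase gene, were at 0.911 to 1.37 and 1.1 to 1.35 CPM in PC9 and at 36.5 to 44.5 and 25.4 to 27.3 CPM in PSPC9. In mean CPM, MMP24 was nearest of these to IL32 in PC9 (1.21, beside 1.91 for IL32) and IGFN1 in PSPC9 (41.0, beside 60.5).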

How the data were processed

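RNA was sequenced from 3 PC9 and 3 PSPC9 libraries made from poly-A RNA. The authors deposited Kallisto estimated counts (whole numbers, not normalized), once per gene symbol and once per Ensembl transcript. Kallisto 0.46.1 and GRCh38.p13 are named in the submitters' processing notes. The condition and replicate number of each library are those of its label. IL32, its transcripts and the gene lists were chosen with earlier results of these data known.

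The gene-level fit used edgeR 4.0.16 under R 4.3.3 (filterByExpr, TMM, quasi-likelihood test, Benjamini-Hochberg adjustment over all 14626 genes, limit 0.01). The SE is the size of the log2 fold change divided by the square root of F. All 35 IL32 transcripts of GENCODE 44 were matched by identifier without its version, which differed for IL32-211. Transcript shares are of the summed IL32 transcript counts, and CPM uses the library sizes of the gene table. Of 188753 transcripts 167067 had an annotated length, with 95.8% of counts. Likeness was computed with a prior count of 2. The script for the gene test was tested on simulated data. The kappa B consensus was the usual 10-base motif. Of the changed genes, up to 5 per list and direction with the smallest p-values were named, with defining members of each list whatever their value. CXCL1, CXCL2, CXCL8, IL18, MMP25 and the marker genes were named after their values were seen or to complete a list. Alternatives were DESeq2 1.42.0, other scalings and filters, counts summed from transcripts with a match in GENCODE 44, a replicate block and each library left out in turn. Total gene counts were 29476725 to 34893782. For IL32 in PC9, counting error alone gives a coefficient of variation of 12.4%, beside 11.2% observed. Figures were drawn with matplotlib 3.10.9. Protein sequences were not used here. The values of 1 gene of the interferon list are not reported here.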

Additional observations from a re-analysis of the deposited data

How the results depend on the processing

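The IL32 log2 fold change of 4.98 ran from 4.89 to 5.04 over 13 alternatives. Counts of changed genes (8307) and changed pathway genes (46) stayed within 1.5 times under other scalings, filters, DESeq2 and each library left out, with 7054 to 8407 genes and 42 to 48 pathway genes in the last case, and no called pathway gene changed sign. With a fold change above 2 as a further limit, 1691 genes passed. The share of higher calls was 50.5%, 45% with upper-quartile factors and 43.7% with library size only. A replicate block gave 8671 genes, 48 pathway genes and 4.98 for IL32. Pairing by number was looked at in the deviations of log2 CPM from the mean of each condition. In these deviations, same-numbered libraries correlated at 0.124, 0.0236 and 0.0215. PC9 replicates 1 and 3 correlated best with the PSPC9 library of the same number, and PC9 replicate 2 with PSPC9 replicate 3 (0.0971). All these values were small, and the numbers were not taken to pair the libraries. The share of IL32-202 in PSPC9 (20.0%) was 16.9% per transcript length and 20.7% over transcripts with a mean count of 10 or more. IL32-202 has 1105 bases, beside 920 for IL32-206 and 950 for IL32-213, so its lead in counts need not be a lead per length. In alternatives chosen after seeing the data, the upstream share in PSPC9 (62.5%) was 58.1% per transcript length, and in PC9 it ran from 28.9% to 58.5% with a library left out. Of the 5 genes most like IL32, 0 were among the 5 with the highest Pearson correlation, a measure that ignores the size of a change. Within 100 kb, 7 genes changed. PC9 libraries held 56 to 71 IL32 counts, so the intervals of their transcript shares are wide.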
